A study of Mus musculus with 17 samples.

Results

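The promoters described are those of the olfactory receptor genes of mouse chromosome 7, taken as every table row whose RefSeq transcript maps to a symbol of Olfr followed by a digit and whose start site lies on that chromosome, with repeated positions taken once. There were 236 such promoters among 24084 in the tables of fragment pileup, and 197 of them were among the 16482 in the tables of read counts. The study digested chromatin with micrococcal nuclease (MNase) and sequenced the protected DNA of mature mouse sperm and of E14 cells, an embryonic stem (ES) cell line of the background 129 X Ola. Mature sperm were collected by swim-up out of the vas deferens and cauda epididymis of C57/B6J mice aged 10 weeks and were crosslinked for 15 min in 1% formaldehyde, while no crosslinking is given for the ES cells. In the standard digestion, sperm received 1 unit per 100000000 cells and ES cells 10 units per 1000000 cells, each for 5 min at 37 °C, and the supernatant of a spin of 5000 g for 5 min was sequenced. Sperm were also digested with rising units in 3 series: an unspun digest with 0.5, 2, 10 and 50 units, and a supernatant and a pellet series with 1, 5, 20 and 100 units each; the labels do not give the number of sperm in these digests. Each of these 14 groups was 1 library, so no value has a replicate and no test between single libraries was made. Intervals are 95% intervals for counting error only, exact for shares, levels and ratios and approximate for slopes.

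MNase cuts naked linker DNA and spares DNA wrapped in a nucleosome, so fragments near nucleosome length mark where histones sit. In sperm most histones are exchanged for protamines, and the stretches that keep nucleosomes are the ones that leave such fragments. Olfactory receptors are odorant-sensing G protein-coupled receptors, each coded in a single exon, and their genes stand in tandem clusters that are silent outside the nose apart from a few members. Mouse class I receptors, the fish-like family that detects many acids and other hydrophilic odorants, stand together in a cluster on chromosome 7 around the beta-globin genes, and the other clusters of the chromosome hold class II receptors.

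The annotated start site of most of these genes was the start codon itself. Of the 236 promoters, 206 had a symbol in the RefSeq promoter table (build GRCm38.p6), 191 of these lay at the same spacing in that table as in the deposited ones, and 158 of the 191 carried ATG at the start position. Of all 32851 entries there, 5.83% did. Downstream of the start therefore lies the coding exon in most members, and this bears on the profiles described further on. The 5 sequences printed here are those of the promoters with the highest ratios of sperm to ES cells (Olfr613 and Olfr243), the lowest ratios (Olfr543 and Olfr525), and of Olfr17, an odorant receptor much used to trace axons from the nose. Each runs from 250 bases before to 50 bases after the start, 5′ to 3′ on the gene's strand. Capitals mark a start codon at the start position and the letters TATAAA.
Olfr613: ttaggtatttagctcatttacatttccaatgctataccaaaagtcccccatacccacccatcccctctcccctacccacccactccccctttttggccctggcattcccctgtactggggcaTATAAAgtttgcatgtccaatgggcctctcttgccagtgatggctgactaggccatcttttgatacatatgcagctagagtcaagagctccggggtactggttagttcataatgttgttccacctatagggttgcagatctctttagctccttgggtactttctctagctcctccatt
Olfr243: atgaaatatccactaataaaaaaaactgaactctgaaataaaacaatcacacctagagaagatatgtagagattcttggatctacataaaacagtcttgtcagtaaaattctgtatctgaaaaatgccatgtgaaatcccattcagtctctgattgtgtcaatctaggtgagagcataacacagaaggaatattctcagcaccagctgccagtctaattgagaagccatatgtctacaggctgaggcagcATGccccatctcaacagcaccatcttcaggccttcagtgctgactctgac
Olfr543: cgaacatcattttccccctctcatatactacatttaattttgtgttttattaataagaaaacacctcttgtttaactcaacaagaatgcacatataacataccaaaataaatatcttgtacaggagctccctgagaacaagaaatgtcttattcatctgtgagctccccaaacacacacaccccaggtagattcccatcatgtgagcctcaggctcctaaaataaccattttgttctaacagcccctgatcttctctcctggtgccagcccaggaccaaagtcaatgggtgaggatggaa
Olfr525: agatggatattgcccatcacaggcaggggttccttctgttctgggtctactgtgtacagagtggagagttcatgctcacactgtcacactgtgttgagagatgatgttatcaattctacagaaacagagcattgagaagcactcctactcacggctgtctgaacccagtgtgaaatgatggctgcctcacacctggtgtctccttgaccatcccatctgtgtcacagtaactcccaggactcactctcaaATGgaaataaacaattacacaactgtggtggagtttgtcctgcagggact
Olfr17: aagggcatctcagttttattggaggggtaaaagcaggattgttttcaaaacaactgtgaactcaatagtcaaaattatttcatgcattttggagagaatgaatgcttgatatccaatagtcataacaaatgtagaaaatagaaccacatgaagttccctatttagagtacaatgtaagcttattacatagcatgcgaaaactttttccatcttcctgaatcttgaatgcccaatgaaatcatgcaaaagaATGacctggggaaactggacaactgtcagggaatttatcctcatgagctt
In GRCm38.p6 these are chr7:103550118-103550417 (plus strand), chr7:103716346-103716645 (plus), chr7:102477853-102478152 (minus), chr7:140322451-140322750 (plus) and chr7:107097217-107097516 (plus). Olfr243, Olfr525 and Olfr17 begin with ATG, and Olfr613 and Olfr543 do not. The letters TATAAA, searched on both strands, were in 89 of the 206 promoters (43.2%) and in 14.2% of the promoters of 27025 genes. The letters TAATTA, read by homeodomain proteins, were in 27 (13.1%), against 5.31%. The Olf1/EBF motif was in 1 (0.485%), against 0.914%. Both of these motifs read the same on either strand, and a match is a run of letters, not a bound site. TATAAA and TAATTA hold no G or C, and median GC content was 37% at the 206 members and 52.7% over the 27025 genes. The part of base composition in these counts was not tested. In 158 of the 191 members the bases searched lie around the start codon. The counts therefore do not cover any start of transcription further upstream, and motifs there were not searched.

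Depth set what could be read. The pileup tables hold the number of nucleosome-sized fragments over each 20 bp bin to 2000 bp on either side of the start, and an isolated fragment adds 22 to a row, so sums were divided by 22 to give fragment equivalents. Within 1000 bp of the start the standard sperm library held a median of 40.6 fragment equivalents at these promoters and the ES cell library 37.8. In the titration libraries the mean was 0.232 to 1.03 per promoter, and 47% to 85.3% of the promoters had none. Single promoters were therefore read in the standard sperm and ES cell libraries, and sums over promoters in the others. Strain, crosslinking and enzyme per cell all differ between standard sperm and ES cells and cannot be told apart from cell type.

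Olfactory receptor promoters of chromosome 7 took a larger share of promoter fragments in sperm of the standard digestion than in ES cells. Together they held 1.81% of all fragments within 1000 bp of a start site in sperm (1.78 to 1.85) and 1.13% in ES cells (1.11 to 1.16), a ratio of 1.60 (1.55 to 1.65). Put as a level, where 1 is the average promoter of the same library, they stood at 1.85 in sperm (1.81 to 1.89) and 1.16 in ES cells (1.13 to 1.18). On the log2 scale this pooled ratio was 0.68 (0.64 to 0.72). It was 0.85 (0.82 to 0.89) at 286 olfactory receptor promoters of chromosome 2, 0.64 (0.62 to 0.67) at 580 on other autosomes, and 0.13 (0.11 to 0.14) at 2092 low-CpG promoters outside the receptor families. Chromosome 7 was thus below chromosome 2 by more than counting error and overlapped the other autosomes. Shares taken among low-CpG promoters alone, a set that includes receptor genes, gave 0.34.

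Unspun sperm, measured in the same kind of table, lay on the other side of the ES cells. The level of the 236 promoters was 0.905 at 0.5 units (0.779 to 1.05), 0.634 at 2 units (0.528 to 0.759), 0.684 at 10 units (0.558 to 0.823) and 0.663 at 50 units (0.543 to 0.801), against 1.16 in ES cells. As log2 ratios to ES cells these were -0.35 (-0.57 to -0.13), -0.87 (-1.13 to -0.60), -0.76 (-1.05 to -0.49) and -0.80 (-1.09 to -0.53). Each of the 4 intervals lay below 0, where that of the standard digestion lay above it. The spin, the enzyme used and depth differ between the unspun and the standard sperm libraries and cannot be told apart.

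Promoter by promoter the shift was broad. Of the 236, 225 had at least 20 fragment equivalents over both libraries, and 209 of these (92.9%) had a higher share in sperm; 44.4% of 21883 promoters of the whole tables did. A log2 ratio of at least 1, a 2-fold difference, was reached by 60 of the 225 (26.7%), against 6.31% of all promoters. No member was 2-fold lower, against 8.88% of all promoters. The median log2 ratio was 0.64, with quartiles of 0.33 and 1.02, and the median over all promoters was -0.09. Read on its own counting interval, a member lay above 0 in 105 cases and below 0 in 1 case, that of Olfr543; over all promoters 11.5% lay above 0 and 11.6% below. Just inside the 2-fold line stood Olfr476 and Olfr571, both at 1.01, and just outside it Olfr473 and Olfr676, both at 0.99. Within 200 bp of the start only 61 members reached 20 fragment equivalents, and 13 of them were past 2-fold higher, against 15.7% of 1508 promoters in that window.

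**Figure D1:**
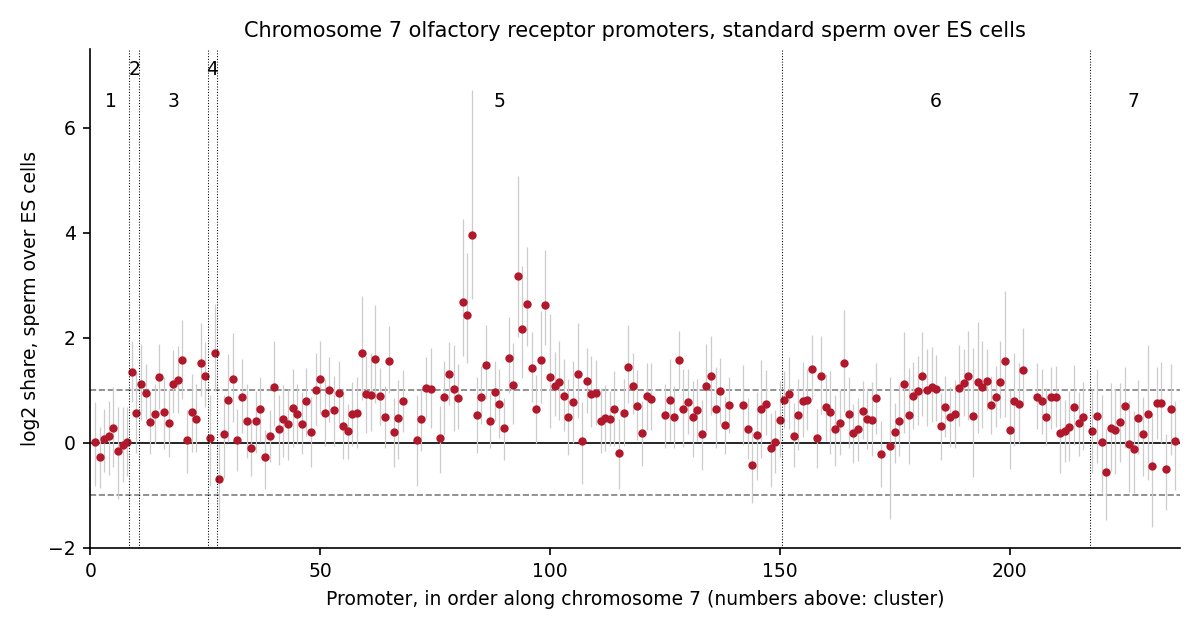
Log2 ratio of the share in standard sperm to that in ES cells (y axis) for the 225 promoters with at least 20 fragment equivalents, in order along chromosome 7 (x axis); grey lines are 95% counting intervals, dashed lines mark 2-fold, and dotted lines part the 7 clusters. Most points lie between 0 and 1, clusters 1 and 7 lie nearest to 0, and 7 points of cluster 5 stand above 2.

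The shift was not even over the chromosome. Split at gaps of more than 1 Mb, the promoters fall into 7 clusters, given here by the positions of their outer start sites in mm9. The largest, with 123 promoters, runs from Olfr543 to Olfr692 (chr7:109626416-112516841) and holds the class I gene Olfr78. Its level was 1.91 in sperm and 1.15 in ES cells, with a pooled log2 ratio of 0.73 (0.67 to 0.79). The next, 67 promoters from Olfr693 to Olfr519 (chr7:113821999-116037919), had levels of 1.87 in sperm and 1.16 in ES cells, and its log2 ratio was 0.69 (0.61 to 0.77), so the class I cluster and this class II cluster overlapped. A cluster of 15, Olfr310 to Olfr292 (chr7:93418321-93836850), had 0.86 (0.70 to 1.02), and all 15 were higher in sperm, against 44.4% of all promoters.

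The first and the last cluster along the chromosome lay below these by more than counting error. The 8 promoters from Olfr1344 to Olfr1350 (chr7:6392612-6522703) had levels of 1.43 in sperm and 1.45 in ES cells, a log2 ratio of -0.02 (-0.26 to 0.22). The 19 promoters from Olfr522 to Olfr541 (chr7:147348847-147890151) had levels of 1.15 in sperm and 0.989 in ES cells, a log2 ratio of 0.21 (0.04 to 0.39). Of these 27 promoters none was past 2-fold, against 60 of the 198 tested in the 5 clusters between them. Over all promoters 6.31% were 2-fold higher, so a count of none among 27 does not set these clusters apart from promoters at large. The first cluster had a lower sperm level and a higher ES cell level than the class I cluster, and the last had lower levels in both libraries. The remaining clusters held 2 promoters each, Olfr291 and Olfr290 with a pooled log2 ratio of 1.07 (0.61 to 1.52) and Olfr520 and Olfr521 with 0.98 (0.43 to 1.55).

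The highest ratios stood close together beside the beta-globin genes. Of the 8 members with the highest ratio, 7 lay within 273 kb of the class I cluster (chr7:110666896-110940344, mm9), among 19 promoters from Olfr611 to Olfr67; Olfr67 is 22.1 kb from the nearest beta-globin start site. Olfr613, a gene of the class I cluster, held 42 fragment equivalents in standard sperm and 3.1 in ES cells, a log2 ratio of 3.97 (2.74 to 6.72). The bases around its annotated start, printed above, carry no start codon there. Whether these bases also occur elsewhere in the genome was not tested. Olfr613 held 1 in the unspun library of 0.5 units and 0 in the other unspun, the supernatant and the pellet libraries. Olfr243 held 35 in sperm and 5 in ES cells, a log2 ratio of 3.17 (2.03 to 5.09), and 0 in each unspun library. The level was 1.95 in standard sperm and 0.0961 in ES cells for Olfr613, and 1.62 in standard sperm and 0.154 in ES cells for Olfr243; the choice by this ratio sets both sides.

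The other 5 of this stretch were chosen by the same ratio, and their values are a description. Olfr611 had 34 fragment equivalents in sperm and 7.1 in ES cells, a log2 ratio of 2.68. Olfr629 had 58 in sperm and 13.1 in ES cells, a log2 ratio of 2.64. Olfr67 had 61.8 in sperm and 14.2 in ES cells, a log2 ratio of 2.62. Its neighbours Olfr68 and Olfr69 gave 1.58 (0.77 to 2.52) and 0.64 (-0.01 to 1.30), and the intervals of adjacent genes overlapped. Olfr612 had 42.1 in sperm and 10.9 in ES cells (2.43), and Olfr628 had 34.8 in sperm and 10.9 in ES cells (2.16). The 12 promoters between them had ratios of 0.28 to 1.62, with a median of 0.93. Of these 12, 5 were past 2-fold, against 26.7% of all members tested and 6.31% of all promoters. The eighth of the highest, Olfr521, lies outside the class I cluster and had 43.9 in sperm and 19.3 in ES cells, a log2 ratio of 1.72 (0.98 to 2.65).

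**Figure D2:**
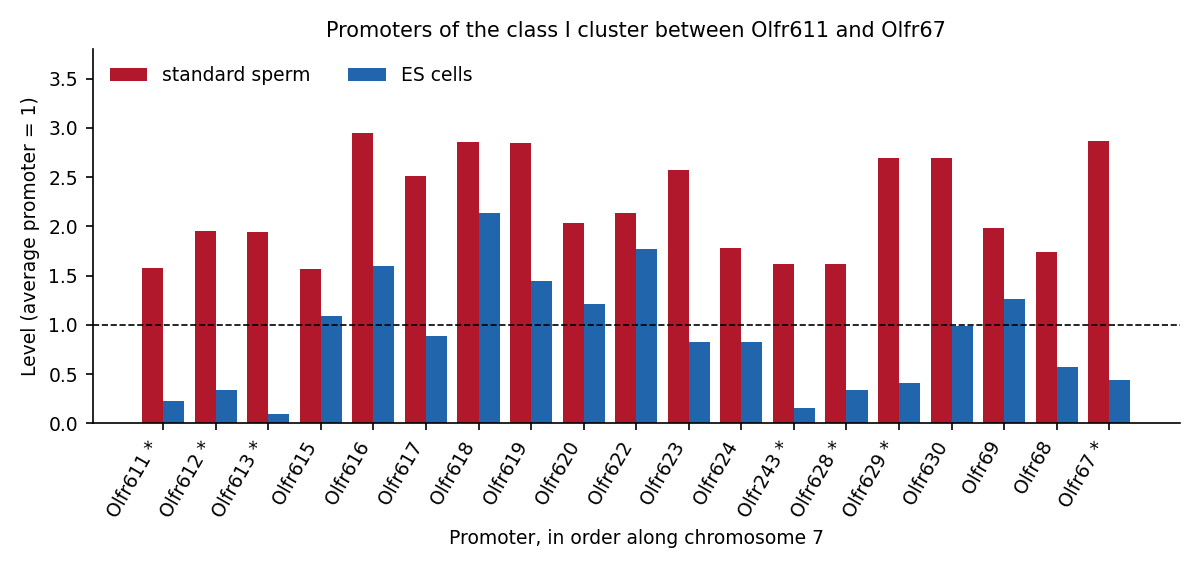
Level in standard sperm (red) and ES cells (blue), as a multiple of the average promoter of the same library (y axis, dashed line at 1), for the 19 promoters from Olfr611 to Olfr67 in order (x axis); stars mark the 7 that are among the 8 highest ratios. The starred promoters have ES cell levels of 0.0961 to 0.442, all below those of the other 12; the choice by the ratio favours low ES cell levels.

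Bins without a fragment were many at these promoters, which in ES cells restates the low level. In ES cells 39% to 85% of the 20 bp bins over the 4 kb around the 7 promoters had no fragment at all, against 1.5% to 27.5% at the 12 between them. In sperm 0% to 61.5% of the bins were empty at the 7 and 0% to 17.5% at the 12, and the highest were Olfr611 (61.5%), Olfr612 (47%) and Olfr628 (28.5%). The median over all 236 promoters was 4% in sperm and 8.5% in ES cells. The sources used here do not state how reads that map to several places were treated, and the part of such reads, and of the strain difference, in the empty bins was not tested.

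The unspun libraries, which were not used to choose the 8 highest, were low at them. Summed over the 4 unspun libraries the 8 promoters held 4.23 fragment equivalents, a level of 0.178 (0.046 to 0.432), and 4 of the 8 had none. The level of all 236 was 0.726 (0.665 to 0.793), and 46 of the 236 had none. The 8 promoters with the lowest ratio stood at 1.08 (0.717 to 1.61). By the choice itself, the 8 highest stood at 2.04 in standard sperm and 0.325 in ES cells. Of the 8, 5 are in the count tables, with a level of 0.565 (0.242 to 1.10) over the 4 supernatant libraries and 0.270 (0.066 to 0.932) over the 4 pellet libraries. All members there had 1.02 (0.937 to 1.10) in the supernatant and 0.930 (0.836 to 1.03) in the pellet, and the intervals overlapped in both series. Without these 8 the pooled log2 ratio of the others was 0.64 (0.59 to 0.68).

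At the other end, few promoters held a larger share in ES cells. Olfr543, the first gene of the class I cluster, had 23.9 fragment equivalents in standard sperm and 58.9 in ES cells, a log2 ratio of -0.69 (-1.47 to -0.01). Olfr525 had 17.8 in sperm and 40.4 in ES cells, a log2 ratio of -0.56 (-1.47 to 0.26). Olfr539 had 25 in sperm and 54 in ES cells, a log2 ratio of -0.51 (-1.28 to 0.17). Both of these stand in the last cluster, as does Olfr46 at -0.44. Olfr685, Olfr555, Olfr1336 and Olfr17 followed at -0.41, -0.27, -0.27 and -0.21, and the intervals of all but Olfr543 included 0. In the unspun libraries Olfr525 held 2, 1, 1 and 1 fragment equivalents at 0.5, 2, 10 and 50 units, and Olfr543 held 0, 1.9, 1 and 1.

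The levels themselves had another order than the ratios. In sperm the highest were Olfr665 with 85.9 fragment equivalents (42.5 in ES cells), Olfr309 with 73.6 (56.2 in ES cells), Olfr291 with 70.4 (40.7 in ES cells) and Olfr586 with 68.2 (54.5 in ES cells). Neighbours in that order differ by less than counting error. The highest in ES cells were Olfr552 (51.7 in sperm and 82.8 in ES cells), Olfr556 (60.6 in sperm and 82.7 in ES cells), Olfr555 (43.2 in sperm and 78.7 in ES cells) and Olfr576 (57 in sperm and 72.9 in ES cells). These 4 are genes of the class I cluster. Across the 236 promoters the sperm and ES cell levels had a Spearman correlation of 0.55, as a description of points that share 2 libraries and their mapping.

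The 6 receptors known from work outside or inside the nose had ratios below the median of 0.64. Olfr78, which senses short-chain fatty acids and acts in the kidney and the carotid body, had 53.9 fragment equivalents in sperm and 54.8 in ES cells, a log2 ratio of 0.55 (-0.02 to 1.12). Olfr2, the octanal receptor first known as I7, had 50 in sperm and 54.4 in ES cells, a log2 ratio of 0.46 (-0.12 to 1.05). Olfr558, another receptor of short-chain fatty acids, had 36 in sperm and 45 in ES cells, a log2 ratio of 0.26 (-0.42 to 0.92). The receptor of azelaic acid, Olfr544, was at 0.17 and Olfr691 at 0.02. With Olfr17 at -0.21 (35.6 in sperm and 62.2 in ES cells), the 6 had intervals that included 0.

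Another 11 promoters were too shallow to be read, 7 of them in the class I cluster. They held 0 to 13.8 fragment equivalents in sperm and 0 to 11.1 in ES cells. As counts not scaled to depth, 9 of the 11 had more in sperm, and no share over all promoters this shallow is given here. Olfr715b had 13.8 in sperm and 0 in ES cells, a count that allows up to 3, and 93.5% of its bins in ES cells were empty. Olfr596 had 0 in both libraries.

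These promoters were poor in CpG and varied in base composition. In the authors' classes 147 were low-CpG (LCP), 50 intermediate (ICP) and none high-CpG (HCP), and 39 are not in the tables that give a class; of all 16482 promoters there 64.2% were high-CpG. The pooled log2 ratio was 0.65 (0.60 to 0.70) at the low-CpG members and 0.67 (0.58 to 0.76) at the intermediate ones, which overlapped. At the 39 without a class it was 0.96 (0.81 to 1.11), above both, with levels of 1.06 in sperm and 0.545 in ES cells. Only 28 of these 39 had at least 20 fragment equivalents over both libraries. Over the 300 bases of the RefSeq table the median GC content was 37% (21.3% to 56.3%) at 206 members and 52.7% over all genes. No CpG at all was held by 71 of the 206, against 1561 of 27025 genes. Lower GC went with a higher ratio. The 65 members of lowest GC (21.3% to 34.3%) had a pooled log2 ratio of 0.79 (0.71 to 0.87), the 65 in the middle 0.72 (0.64 to 0.80), and the 66 of highest GC (39.3% to 56.3%) 0.46 (0.38 to 0.55). The level in sperm was 1.98, 2.05 and 1.62 in these groups, and that in ES cells 1.14, 1.25 and 1.18.

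The relation was also seen inside single clusters. As a description, across points that share 2 libraries, Spearman's rho between GC content and the log2 ratio was -0.36 over 196 promoters, -0.26 over 100 of the class I cluster and -0.40 over 57 of the cluster from Olfr693 to Olfr519. Without the 8 highest ratios it was -0.42 over 188. Between clusters the order was less regular. Median GC content was 45% in the last cluster with its ratio of 0.21, 43.7% in that of Olfr520 and Olfr521 with 0.98, and 41.3% in the first with -0.02. The other 4 clusters had medians of 34.3% to 37.3% and ratios of 0.69 to 1.07. The 85 members with TATAAA and enough depth had a median log2 ratio of 0.79 and the 111 without it 0.55; these letters hold no G or C, and the part of base composition in this was not tested.

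Fragments were sparse over the coding exon in both the standard sperm and the ES cell library. Profiles run in the direction of the gene. Over the 200 bp before the start the signal was 0.908 of the flanks, the stretches 1000 to 2000 bp away on both sides, in sperm (0.854 to 0.965) and 0.958 in ES cells (0.899 to 1.02). Over the first 800 bp after the start it was 0.458 of the flanks in sperm (0.438 to 0.479) and 0.567 in ES cells (0.543 to 0.592). The lowest 100 bp lay 200 to 300 bp after the start, at 0.400 in sperm and 0.481 in ES cells, and by 1000 bp the signal was back at the flanks. The stretch of 800 bp was set after the profile was seen. The sources used here do not state how reads that map to several places were treated, and their part in this dip was not tested.

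**Figure D3:**
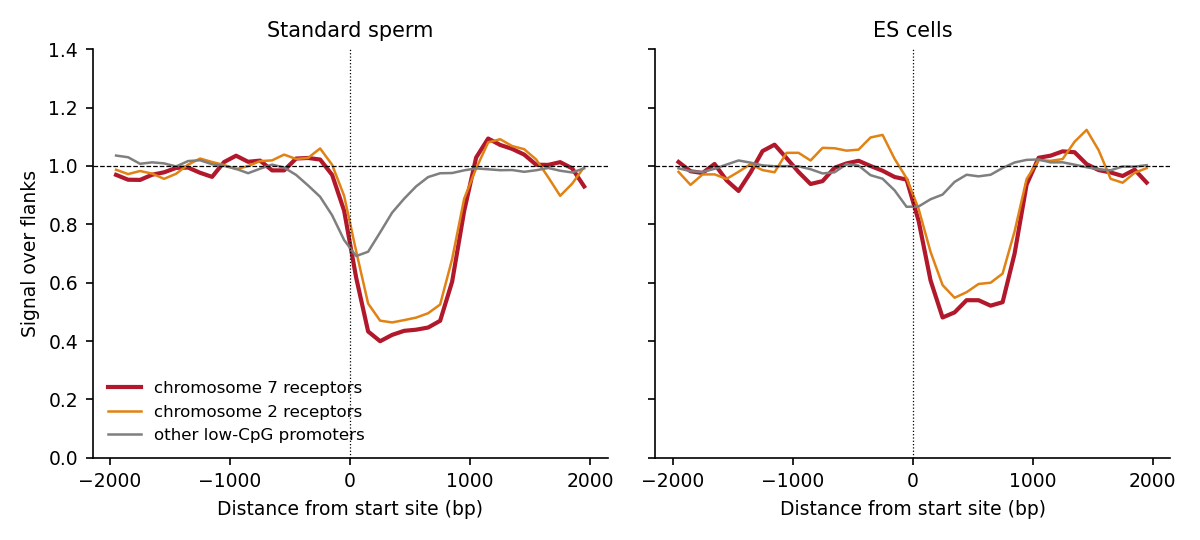
Signal over that of the flanks (y axis) by distance from the start site in 100 bp bins (x axis, downstream to the right) in standard sperm (left) and ES cells (right), for chromosome 7 and chromosome 2 olfactory receptors and other low-CpG promoters. The receptor curves stay low from about 100 bp to 800 bp after the start, and the other low-CpG promoters dip only around the start.

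The dip was deeper where the start site is a start codon. At the 158 members with a start codon at the start it was 0.396 in sperm (0.373 to 0.420) and 0.499 in ES cells (0.471 to 0.527). At the 33 members with the same start but no start codon there it was 0.626 in sperm (0.564 to 0.694) and 0.872 in ES cells (0.782 to 0.972). At chromosome 2 receptors it was 0.518 in sperm and 0.637 in ES cells, and at low-CpG promoters outside the receptor families 0.846 in sperm and 0.937 in ES cells. Member by member, the first 800 bp were below the flanks in sperm at 210 of 225 (93.3%), against 83.8% of all promoters, and in ES cells at 183 (81.3%), against 74.4%. They were at or below 0.5 of the flanks in both libraries at 90 (40%), against 30.4% of all promoters and 8.12% of the low-CpG promoters outside the receptor families. All promoters include the high-CpG class, which has its own depletion around the start.

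With more enzyme the share of these promoters was lower in the supernatant series, and in the unspun series the slope rested on the lowest dose. The slope of the log2 level on log2 units, that is per doubling of the enzyme, was -0.054 in the unspun series (-0.10 to -0.0034), and 0.014 without the library of 0.5 units. In the supernatant series the level was 1.27 (1.10 to 1.45), 1.30 (1.07 to 1.56), 0.965 (0.808 to 1.15) and 0.715 (0.599 to 0.845) at 1, 5, 20 and 100 units, a slope of -0.13 (-0.18 to -0.086). It was negative without each dose in turn. In the pellet series the level was 1.08 (0.800 to 1.45), 1.01 (0.793 to 1.27), 1.14 (0.923 to 1.39) and 0.762 (0.637 to 0.900), a slope of -0.063 (-0.13 to 0.0066), and without the highest dose 0.016. The supernatant slope was steeper than that of the low-CpG promoters outside the receptor families, -0.033 (-0.046 to -0.020), and overlapped that of the chromosome 2 receptors, -0.19 (-0.24 to -0.15). In the other series the slopes of the members overlapped those of the same low-CpG promoters, which were -0.057 (-0.071 to -0.043) in the unspun and -0.064 (-0.085 to -0.043) in the pellet series. The slope of the chromosome 2 receptors was -0.084 (-0.13 to -0.036) in the unspun series, which overlapped that of the members. In the pellet series it was -0.29 (-0.35 to -0.23), steeper than that of the members by more than counting error.

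**Figure D4:**
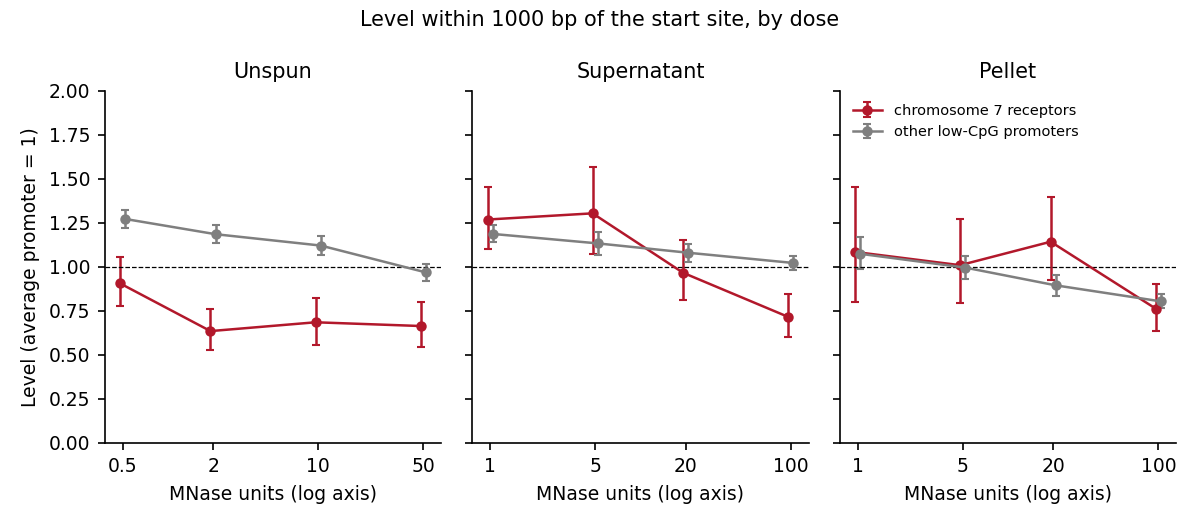
Level within 1000 bp of the start (y axis, average promoter of the same library at 1) by MNase units (x axis, log scale) in the unspun, supernatant and pellet series, for chromosome 7 olfactory receptors (red) and other low-CpG promoters (grey), with 95% counting intervals. In the unspun series the receptors lie below the other low-CpG promoters at every dose, and in the supernatant series they are above 1 at 5 units and below it at 100.

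Whether pellet and supernatant of the same units differed depended on what the share was taken of. Among all promoters no interval left out 0. The log2 ratio of pellet to supernatant was -0.23 (-0.71 to 0.25) at 1 unit, -0.37 (-0.81 to 0.08) at 5 units, 0.24 (-0.17 to 0.63) at 20 units and 0.09 (-0.27 to 0.45) at 100 units. Among low-CpG promoters alone it was -0.30 (-0.92 to 0.25), -0.08 (-0.59 to 0.45), 0.61 (0.14 to 1.07) and 0.51 (0.08 to 0.92), above 0 at 20 and 100 units. The low-CpG promoters outside the receptor families are part of the base of that share. Among all promoters their own ratio was -0.14 (-0.29 to 0.0015), -0.19 (-0.33 to -0.050), -0.27 (-0.40 to -0.15) and -0.35 (-0.44 to -0.25) at 1, 5, 20 and 100 units. Paired by dose, the mean over the 4 doses among all promoters was -0.07 ± 0.28 (SD, n = 4 doses), higher in the pellet at 2 of 4, with p = 0.75 by an exact two-sided sign-flip permutation test, for which 0.125 is the smallest p. The ratios rest on 45.7 to 133 fragment equivalents in the pellet and 110 to 203 in the supernatant. In the class I cluster alone the levels were 1.01 in the pellet and 1.48 in the supernatant at 1 unit, and 0.866 in the pellet and 0.716 in the supernatant at 100 units, with intervals of the ratio that included 0. Whether both fractions of a dose came from the same digest is something the sources used here do not state.

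Over the first 800 bp, coding exon in most members, the order of stretch and flanks was the other way round at the highest doses. In the unspun series the first 800 bp stood at 0.656 of the flanks at 0.5 units (0.482 to 0.873), 1.01 at 2 units (0.711 to 1.41), 1.41 at 10 units (0.998 to 2.00) and 1.68 at 50 units (1.18 to 2.37). In the supernatant series the values were 1.16 (0.898 to 1.48), 2.11 (1.49 to 3.02), 1.78 (1.27 to 2.48) and 2.58 (1.87 to 3.63) at 1, 5, 20 and 100 units. In the pellet series they were 1.68 (0.975 to 2.88), 1.25 (0.772 to 1.99), 2.12 (1.42 to 3.08) and 3.32 (2.37 to 4.61). At the highest dose of each series this stretch held more than the flanks, while in standard sperm it was at 0.458 and in ES cells at 0.567. The values rest on 24.6 fragment equivalents or more in the stretch. In the pellet of 100 units the class I cluster stood at 4.39 (2.82 to 6.96) and the other members at 2.23 (1.29 to 3.73). In the supernatant of 100 units they stood at 2.56 (1.63 to 4.04) and 2.62 (1.60 to 4.40). In the unspun library of 50 units the class I cluster stood at 2.18 (1.35 to 3.53). The other members were at 1.24 (0.699 to 2.08) there, an interval that included the level of the flanks.

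**Figure D5:**
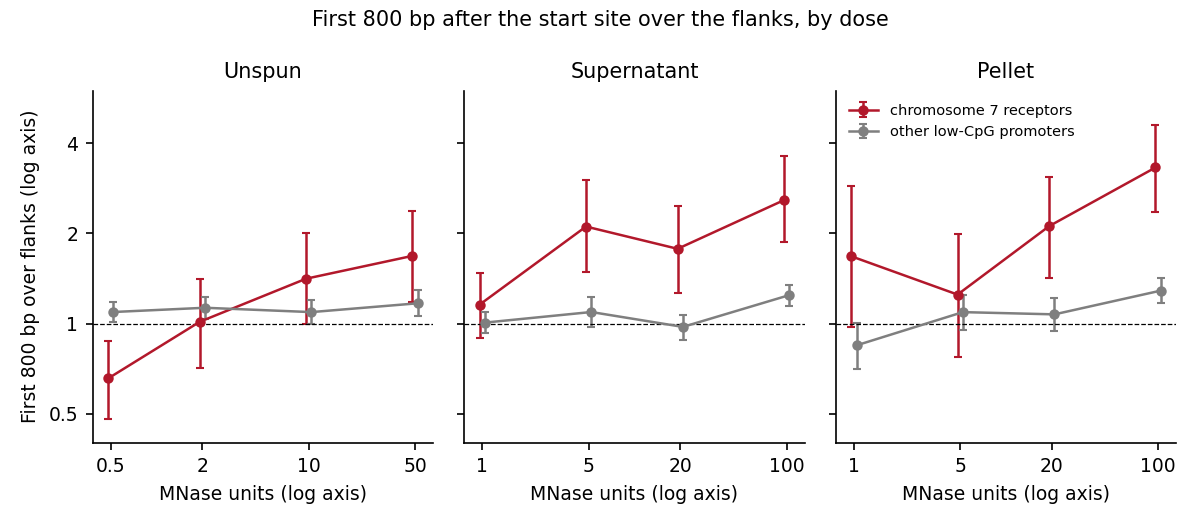
Signal over the first 800 bp after the start divided by that of the flanks (y axis, log scale) by MNase units (x axis, log scale) in the 3 series, for chromosome 7 olfactory receptors (red) and other low-CpG promoters (grey), with 95% counting intervals. The receptors stand at 0.656 in the lowest unspun dose and at 3.32 in the highest pellet dose, while the other low-CpG promoters stay between 0.846 and 1.29.

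Per doubling of the enzyme the slope of the log2 of this ratio was 0.20 (0.11 to 0.29) in the unspun series, 0.15 (0.065 to 0.23) in the supernatant and 0.17 (0.042 to 0.29) in the pellet. The same slopes at the low-CpG promoters outside the receptor families were 0.011 (-0.015 to 0.037), 0.035 (0.011 to 0.060) and 0.083 (0.042 to 0.12), so the intervals were apart in the unspun and supernatant series and overlapped in the pellet. At the members with a start codon at the start the ratio was 1.56 (0.994 to 2.43) in the unspun library of 50 units, 2.97 (1.99 to 4.45) in the supernatant of 100 units and 4.73 (3.06 to 7.56) in the pellet of 100 units. At the chromosome 2 receptors these libraries gave 1.01 (0.716 to 1.39), 2.87 (2.00 to 4.13) and 3.46 (2.40 to 4.94), that is above the flanks in the spun series and near them in the unspun one. The count tables have wider bins and no stated fragment size, so their values are not on the scale of the pileup tables.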

How the data were processed

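The values are of MNase fragments around annotated start sites in 14 of 17 samples; unspun ES cells, the sperm input and the histone H3 immunoprecipitation were not analysed here. The submitters' processing notes name Bowtie, SAMtools 0.1.16 and the build mm9. The authors deposited a signal table (fragment pileup of 135 to 165 bp fragments in 20 bp bins, not scaled to depth) for ES cells, standard sperm and unspun sperm. They deposited count tables (whole-number read counts per bin, not scaled to depth, with a CpG class per promoter) for the supernatant and pellet series. Windows that share DNA agreed within the tables only when read along the gene's strand, with bins of 20 bp in the pileup tables and 50 bp in the count tables, whose headers are labelled in 20 bp steps; 50 bp was used. The sources used here do not give the fragment size of the count tables or the treatment of duplicates and reads with several places. Of the pellet samples, those of 5 and 20 units have a description that disagrees with the title on the units; the title was followed.

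Rows were 28015 and 16493, and 24084 and 16482 after repeated positions were taken once; 27264 and 16289 rows had a symbol in the RefSeq table of GRCm38.p6, used for names, strands and promoter sequences. Sums over 1000 bp to each side were divided by the sum of all promoters for shares. For fragment equivalents they were divided by the sum of an isolated run, taken as 1 fragment (22 in the pileup tables, 1.99 to 3.24 in the count tables). Log2 ratios of single promoters had a pseudocount of 22 in pileup; intervals (Clopper-Pearson, 95%) did not. Slope intervals came instead from a standard error for counting error, with a normal approximation. Intervals were tested on simulated independent counts only. That checks how they were computed and not whether they hold for these data. Python 3.11.15, NumPy 2.4.6, pandas 2.3.3 and SciPy 1.17.1 were used.

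Named are the 8 highest and 8 lowest ratios among promoters with 20 fragment equivalents, the 4 highest levels in each library, 6 receptors known from the literature and those beside the 2-fold line; other genes of the stretch from Olfr611 to Olfr67, and shallow ones, were named after their values were seen. The members and lists were chosen with earlier results of these data known. Receptor class was to be read from proteins; no protein table was used here, so the cluster that holds Olfr78 stands for class I. Alternatives were other windows, flanks, pseudocounts, filters, bases of the share, doses and member sets. No test between single libraries was made because each group has 1; pellet and supernatant were tested over the 4 doses, paired by dose, with an exact sign-flip permutation test.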

Additional observations from a re-analysis of the deposited data

How the results depend on the processing

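Of 68 alternatives over 14 results, 47 stayed within counting error of the reported value, on the same side for the mean over doses, or within 1.5 times for counts; 18 moved and 3 reversed. The pooled log2 ratio of sperm to ES cells was 0.63 within 200 bp, 0.62 over the whole span and 0.34 among low-CpG promoters. Within 200 bp 13 of 61 promoters were past 2-fold higher, against 15.7% of 1508 promoters there. That margin was smaller than within 1000 bp, where 26.7% stood against 6.31%. Over the whole span 44 of 236 were, with no share over all promoters given here. With flanks of 500 to 1500 bp the signal before the start was 1.00 in sperm and 1.05 in ES cells; over 100 bp it was 0.847 in sperm. At members with a start codon at the start, a set chosen after seeing the data, the first 800 bp were at 0.396 in sperm and 0.499 in ES cells. The unspun slope reversed to 0.014 without the lowest dose. The supernatant slope was -0.18 within 200 bp, -0.082 among low-CpG promoters and -0.20 without the lowest dose. The pellet slope was 0.026 within 200 bp, 0.058 among low-CpG promoters and 0.016 without the highest dose. Pellet over supernatant was -1.45 at 1 unit within 200 bp, 0.18 at 5 units over the whole span and 0.51 at 100 units among low-CpG promoters, where 20 units gave 0.61, with intervals above 0 at both. The mean over the 4 doses, with alternatives chosen after seeing the data, reversed to 0.094 over the whole span and 0.18 among low-CpG promoters; its p was 0.125 to 0.75 (exact permutation test). The cause of these differences was not tested. No analysis with a replicate block was possible because each group has 1 library; pellet and supernatant were paired by dose. Single promoters of the titration libraries could not be read, at no more than 1.03 fragment equivalents each on average. Intervals cover counting error only and treat fragment equivalents as independent, though reads carry no molecular identifiers.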
